A study of Mus musculus with 6 samples.

Results

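The structural proteins of the Z-disc are represented here by 10 genes: *Actn2*, *Actn3*, *Ldb3*, *Tcap*, *Myoz1*, *Myoz2*, *Myoz3*, *Myot*, *Csrp3* and *Pdlim3*. They were taken by symbol from the gene count matrix, which holds 55401 genes, and all 10 were found there. *Phf2* encodes a demethylase of histone 3 lysine 9, and the comparison asks which of these Z-disc genes differ at the RNA level when *Phf2* is disrupted. RNA was sequenced from C2C12 cells, an established line of mouse myoblasts that fuse into myotubes in medium low in serum, 2 d post differentiation, and both groups were in 2% horse serum. The 3 *Phf2* KO libraries came from cells given Cas9 and a pool of guide RNA plasmids against *Phf2*, and the 3 control libraries, which the labels call wild type, came from cells given the same reporter plasmid without a *Phf2* guide. In both groups cells carrying the ZsGreen reporter were sorted as 1 pool and expanded without cloning, and the replicates are wells of 1 experiment. The p-values below therefore measure the spread between wells, and an effect of the KO cannot be told apart from a difference between the 2 pools of cells.

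The Z-disc borders the sarcomere, the contractile unit of striated muscle, and anchors the thin actin filaments of neighbouring sarcomeres from opposite sides. Alpha-actinins cross-link these filaments, telethonin caps the ends of titin, and proteins with PDZ and LIM domains, calsarcins and myotilin bind alpha-actinin and tie it to filamins and to signalling proteins such as calcineurin. During differentiation these proteins first gather in dense bodies along forming fibrils and later line up as mature Z-discs.

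Levels are given in CPM, estimated counts scaled to a common library size with TMM, edgeR's correction for differences in composition between libraries, and changes as log2 fold changes, KO minus control, with the standard error (SE) and 95% interval. A gene was called where the adjusted p of edgeR's quasi-likelihood test was under 0.05. *Phf2* itself measured 102.4, 95.5 and 104.6 CPM in the control libraries and 41.1, 37.6 and 38.6 CPM in the KO libraries, which is 38.8% of the control mean and in the direction of the labels. Library totals ran from 56821143 to 58507833 estimated counts in the controls and from 52526109 to 67502788 in the KO, of which the 10 genes took between 0.0544% and 0.0721%. The muscle identity of both groups was checked with 10 markers of differentiated muscle, all of which were measured and are given below.

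Transcripts of *Actn2*, *Myoz2* and *Pdlim3* were lower in *Phf2* KO cells, by very unequal amounts. Of the 10 genes, 9 had enough counts to be tested, and the estimate was below 0 for 9 and above 0 for 0 of them, with a median log2 fold change of −0.42, beside −0.001 over all 17310 genes tested. The test called 3 of these 9 genes lower (*Actn2*, *Myoz2* and *Pdlim3*) and 0 higher (also 0 higher at an unadjusted p under 0.05 and with exactTest, DESeq2 and limma-voom), while it called 3.26% of all genes tested lower and 3.22% higher. In 4 of the 9 every KO library lay below every control library, those called plus *Csrp3*, against 12.2% of all genes tested. The labels do not say that wells of the same number are paired, but same-numbered libraries deviated together over 10923 genes. A fit blocked on the replicate number, run as an alternative, called 5 of the 9 lower, adding *Actn3* and *Csrp3*. A lower level in these bulk libraries can mean fewer differentiated cells or less RNA per cell, and these cannot be told apart.

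**Figure D1:**
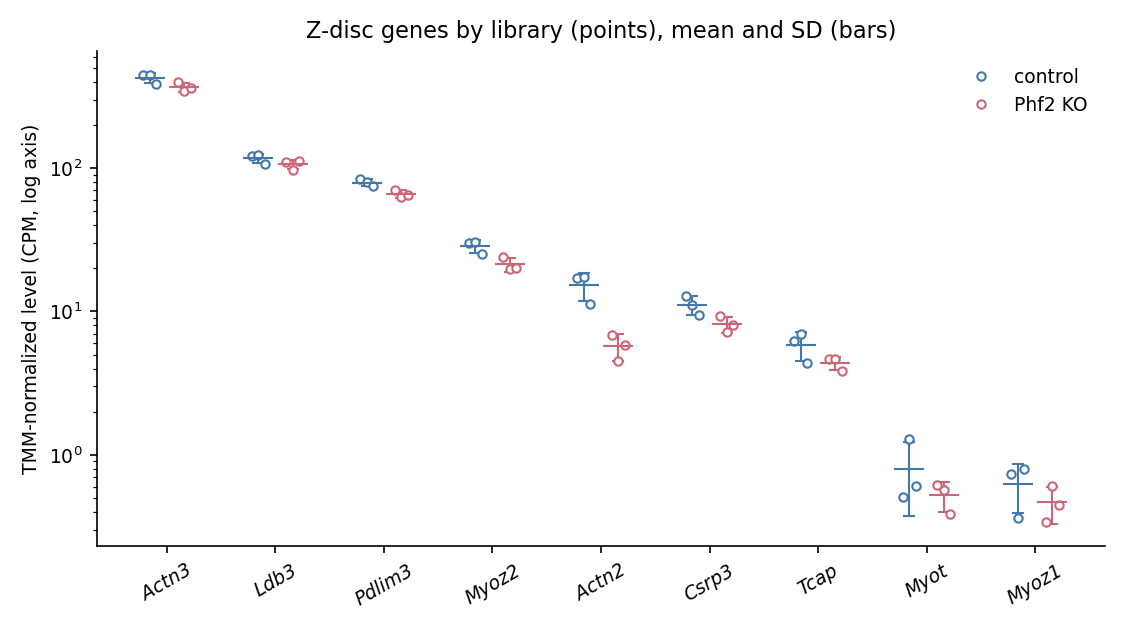
CPM of the 9 tested Z-disc genes on a log axis, with each library as an open circle, the group mean as a horizontal line and the SD as an error bar (n = 3 wells per group). The control and KO circles of *Actn2* are widely separated, those of *Pdlim3*, *Myoz2* and *Csrp3* are separated by less, and those of the other genes overlap.

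Among these genes the largest difference was that of an alpha-actinin. *Actn2*, on the minus strand of chromosome 13 (12269426 to 12340760, GRCm38), encodes the alpha-actinin of all sarcomeres in heart and in skeletal muscle. It measured 17.1, 17.4 and 11.3 CPM in the control libraries and 6.89, 4.49 and 5.84 CPM in the KO libraries. The groups did not overlap, and control replicate 3 was nearest to the KO. *Actn2* fell by 1.41 on the log2 scale (SE 0.197, interval −1.84 to −0.97, adjusted p = 0.00234), to 37.7% of its control mean. It was called after leaving out any single library, with an adjusted p of at most 0.033, but not by limma on log2(TPM + 1) or log2(TPM + 0.1), where TPM is the authors' level scaled by transcript length and library (adjusted p = 0.0708 and 0.0629).

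*Actn3*, on chromosome 19 (4861216 to 4877909, minus strand), encodes the second sarcomeric alpha-actinin, which in adult muscle is restricted to fast fibres. Its control libraries held 444.8, 446.3 and 387.5 CPM and its KO libraries 398.8, 346.1 and 362.5 CPM. Control replicate 3 lay below KO replicate 1, so the groups overlapped. The log2 fold change was −0.21 (SE 0.0647, interval −0.35 to −0.06) with an adjusted p of 0.092, and in the fit with the replicate block it was 0.0320. *Actn3* was also called without control replicate 3 (0.0125) and without KO replicate 1 (0.0309). As a description of these changes, chosen after the values were seen, the log2 ratio of *Actn2* to *Actn3* CPM was −4.70, −4.68 and −5.10 in the controls and −5.85, −6.27 and −5.96 in the KO. Its two-sided exact permutation p was 0.1, the smallest possible for 3 libraries against 3. It gives no support, because the pair was chosen from these values.

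The promoters of the called genes are shown to let their elements be read side by side, from 250 bases before to 50 bases after the RefSeq start. Matches to the motifs named below are in capitals. The sequences are those of RefSeq on GRCm38.p6, at chr13:12340683-12340982 (minus strand) for *Actn2*, chr3:123034938-123035237 (minus strand) for *Myoz2* and chr8:45885237-45885536 (plus strand) for *Pdlim3*.
Actn2: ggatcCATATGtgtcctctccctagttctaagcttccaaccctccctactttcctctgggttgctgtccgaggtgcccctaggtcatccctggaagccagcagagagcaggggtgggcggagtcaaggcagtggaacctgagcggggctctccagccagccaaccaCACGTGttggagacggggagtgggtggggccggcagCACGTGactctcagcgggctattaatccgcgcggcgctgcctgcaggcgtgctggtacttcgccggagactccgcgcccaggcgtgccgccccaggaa
Myoz2: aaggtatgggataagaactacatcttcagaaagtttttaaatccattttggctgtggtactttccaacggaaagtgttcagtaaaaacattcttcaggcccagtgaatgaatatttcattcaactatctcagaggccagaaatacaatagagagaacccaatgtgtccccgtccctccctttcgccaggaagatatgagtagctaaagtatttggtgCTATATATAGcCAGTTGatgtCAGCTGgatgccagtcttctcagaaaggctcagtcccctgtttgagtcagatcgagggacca
Pdlim3: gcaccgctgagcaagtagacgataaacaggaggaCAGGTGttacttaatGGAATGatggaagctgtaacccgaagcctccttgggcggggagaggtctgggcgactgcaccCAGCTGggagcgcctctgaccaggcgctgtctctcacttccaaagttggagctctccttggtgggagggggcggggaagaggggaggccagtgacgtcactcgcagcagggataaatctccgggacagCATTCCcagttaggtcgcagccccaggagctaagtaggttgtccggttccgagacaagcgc
The motifs searched, 5 in all, were looked for on both strands. They were the E-box CANNTG, the M-CAT element CATTCC and the TATA box, taken only as TATAAA. The others were the MEF2 element and the CArG box bound by serum response factor. MyoD family factors bind E-boxes, but the search did not sort E-boxes by their middle letters or by the factor that binds them. The *Actn2* window held 3 E-boxes, starting at −245 (CATATG), −84 and −48 from the RNA start, the last pair of them with the letters CACGTG. The *Myoz2* window held a MEF2 element (CTATATATAG) at −33 with E-boxes at −22 and −12, and was poor in G and C (42.7%, beside a median of 52.7% over all promoters). In the *Pdlim3* window there were E-boxes at −216 and −139 and M-CAT elements at −201 (on the opposite strand, GGAATG) and −11. None of these capitals overlap each other. Among 32851 promoters of the same length, 72.3% held an E-box, 14.7% an M-CAT element and 13.6% the letters TATAAA. A MEF2 element was in 3.2% and a CArG box in 1.6%, so the E-boxes are common and the MEF2 element of *Myoz2* is rare. The table held promoters of 5 members in all, 7 windows. Of the windows, 5 had an E-box, 1 a MEF2 element, 1 M-CAT elements, 2 a CArG box and 0 the letters TATAAA. The CArG box was 1 site, CCATTTATGG, seen at −35 and −109 from the 2 overlapping *Ldb3* windows. Other TATA-like letters, such as the TATATATA within the MEF2 match of *Myoz2*, were not counted. A match is a description of letters and not a bound site.

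The calsarcins, encoded by the *Myoz* genes, bind alpha-actinin and calcineurin and differ in the fibre types that make them. *Myoz2* (chromosome 3, 123006206 to 123035015) encodes the calsarcin of heart and slow fibres. It was at 30.2, 30.5 and 25.1 CPM in the control libraries and at 24.1, 19.7 and 20.1 CPM in the KO libraries. All KO values were below all control values, by a small gap between control replicate 3 and KO replicate 1. *Myoz2* fell by 0.42 on the log2 scale (SE 0.0986, interval −0.64 to −0.21, adjusted p = 0.0204), to 74.5% of its control mean. The call was lost, with an adjusted p of up to 0.117, when control replicate 1, control replicate 2, KO replicate 2 or KO replicate 3 was left out, and on both TPM scales (0.117 or more).

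*Myoz1* (chromosome 14, 20649107 to 20656540) encodes the fast-fibre calsarcin and was close to the limit of what these libraries could measure. It had 42, 21 and 46 estimated counts in the controls and 21, 32 and 30 in the KO. The values overlapped, and the interval of the log2 fold change, −1.47 to 0.59, leaves room for a fall or a rise (adjusted p = 0.698). *Myoz3*, the third gene of the family (chromosome 18, 60573750 to 60591788), had 0 estimated counts in all control libraries and 0, 4 and 4 in the KO libraries. As 1 count stands for about 75 covered bases and a read pair adds about 4 counts, these values amount to about 1 read pair each, and no difference was detectable at this depth. *Myot* (chromosome 18, 44334074 to 44355724) encodes myotilin, which bundles actin and binds alpha-actinin and filamin C. It had 29, 75 and 35 estimated counts in the controls and 38, 30 and 26 in the KO. Only control replicate 2 was above the rest, and the log2 fold change of −0.61 had an interval from −1.59 to 0.37 (adjusted p = 0.528).

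Among the PDZ and LIM proteins, *Pdlim3* (chromosome 8, 45885461 to 45919548) encodes the actinin-associated LIM protein ALP. It measured 84.3, 79.6 and 74.5 CPM in the control libraries and 70.7, 62.8 and 64.7 CPM in the KO libraries. The groups were separate although the shift was modest. *Pdlim3* fell by 0.27 on the log2 scale (SE 0.0598, interval −0.40 to −0.14, adjusted p = 0.0161), to 83.1% of its control mean. The adjusted p was 0.0622 without control replicate 1, 0.0803 without control replicate 2, 0.0938 without KO replicate 2 and 0.0729 without KO replicate 3, and on the TPM scales it was 0.167 and 0.155.

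*Ldb3* (chromosome 14, 34526603 to 34588682) encodes ZASP, also called Cypher, which joins alpha-actinin to other Z-disc proteins through its PDZ domain. It measured 121.8, 122.8 and 107.2 CPM in the controls and 110.9, 97.5 and 112.1 CPM in the KO. KO replicates 1 and 3 were above control replicate 3. The log2 fold change was −0.13 (SE 0.065, interval −0.28 to 0.01, adjusted p = 0.289), so a fall larger than 0.28 lies outside the interval. The direction of *Ldb3* depended on the measure: the authors' TPM were 59.2, 54.4 and 41.4 in the controls and 73.8, 65.5 and 42.8 in the KO, with a higher KO mean. *Ldb3* has 8 annotated transcripts, and its TPM per CPM ran from 0.382 to 0.672 between libraries, whereas for *Actn3* this quotient stayed between 0.740 and 0.772.

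*Csrp3* (chromosome 7, 48830398 to 48848033) encodes muscle LIM protein, a binding partner of alpha-actinin and telethonin. It measured 12.9, 11.1 and 9.48 CPM in the controls and 9.25, 7.14 and 8.08 CPM in the KO. The groups did not overlap, although control replicate 3 and KO replicate 1 were close. The log2 fold change was −0.45 (SE 0.140, interval −0.75 to −0.15), and the adjusted p was 0.0789, or 0.0497 with the replicate block and 0.0426 without control replicate 3. *Tcap* (chromosome 11, 98383811 to 98384953) encodes telethonin, the titin cap. It measured 6.21, 7.01 and 4.40 CPM in the controls and 4.67, 4.63 and 3.86 CPM in the KO. Control replicate 3 lay within the KO values. The log2 fold change was −0.42 (SE 0.185, interval −0.82 to −0.02) with an adjusted p of 0.228.

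**Figure D2:**
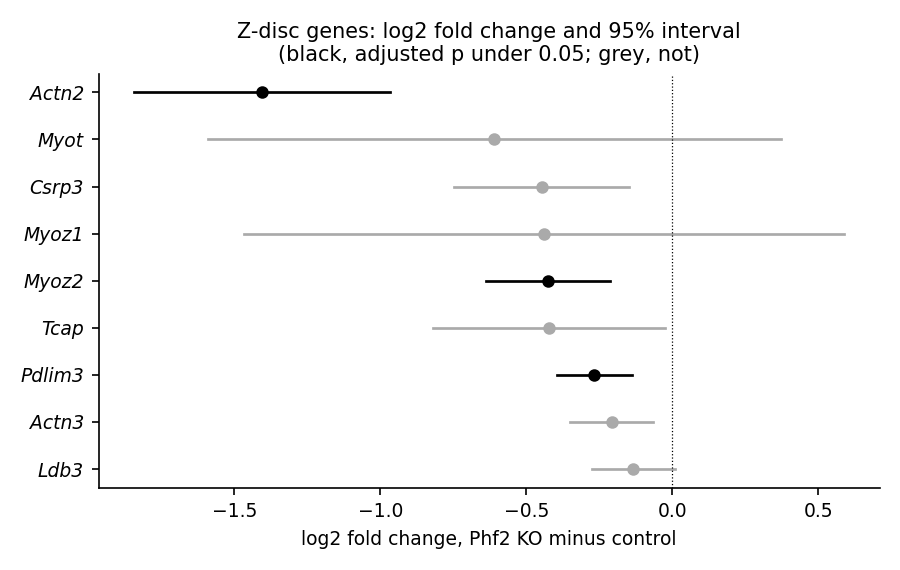
Log2 fold change, KO minus control, of the 9 tested Z-disc genes with the 95% interval of edgeR's quasi-likelihood fit (n = 3 wells per group), in black where the adjusted p was under 0.05 and in grey where it was not. *Actn2* at −1.41 stands apart, the intervals of *Myoz1* and *Myot* are wide, and that of *Ldb3* reaches just above 0.

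Many of these genes shared the library in which they were lowest. Control replicate 3 was the lowest control for 7 of the 9 tested genes, and KO replicate 2 the lowest KO library for 6. The summed CPM of the 10 muscle markers was likewise lowest in these libraries of each group: 8657, 8702 and 7507 in the control libraries and 6587, 6006 and 6243 in the KO libraries. The markers' KO mean was 75.8% of their control mean, while the summed CPM of the Z-disc genes, most of it *Actn3*, was at 85.0%. Per gene, the median log2 fold change was −0.38 over the 10 markers and −0.42 over the 9 tested Z-disc genes. Every KO library lay below every control library for 10 of the 10 markers, and 7 were called lower, against 12.2% and 3.26% of all genes tested. Those with the largest changes were *Ckm* (creatine kinase, log2 fold change −0.78), *Mymk* and *Mymx* (the fusion proteins myomaker and myomixer, −0.50 and −0.47), *Myh3* (embryonic myosin heavy chain, −0.44) and *Chrna1* (a subunit of the acetylcholine receptor, −0.39). *Des* (−0.37) and *Myog* (−0.34) were also called. *Acta1* (−0.36), *Tnnt3* (−0.35) and *Myod1* (−0.18) were not (adjusted p = 0.117, 0.096 and 0.0679). *Myh3* was not called without control replicate 1, KO replicate 1 or KO replicate 3 (adjusted p up to 0.143). *Actn2* at −1.41 was below each of these, *Ldb3* at −0.13 was above all of the markers, and the other 7 tested Z-disc genes had estimates within the markers' range of −0.78 to −0.18. For 8 genes of cycling or undifferentiated myoblasts, such as *Mki67* and *Myf5*, 0 were called by edgeR, by DESeq2 or by limma-voom (0 at an unadjusted p under 0.05), and their summed CPM was 284 to 304 in the controls and 278 to 301 in the KO. Of 12 markers of fibroblasts, adipocytes, cartilage and bone, 7 were tested and 1 was called, *Runx2*, a factor of bone and cartilage cells (log2 fold change 0.31, adjusted p = 0.00697, but 0.0597 without control replicate 2 and 0.0511 without KO replicate 2). DESeq2 called 2 of these 7 higher, and 2 were higher at an unadjusted p under 0.05 in the edgeR fit, the other being *Dcn* (log2 fold change 0.21, adjusted p = 0.204). Of the 7 tested markers, 4 had an estimate below 0 and 3 above, with a median log2 fold change of −0.005. Their summed CPM, most of it *Dcn*, was 599 to 707 in the controls and 710 to 774 in the KO, and *Thy1* and *Plin1* were at 0 counts in all 6 libraries. What part these shifts have in the Z-disc genes' differences was not tested.

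On a scale per transcript length, the Z-disc set was dominated by *Actn3*, whose level averaged 318.6 TPM in the controls. *Pdlim3* followed at 93.9 TPM, then *Myoz2* at 51.9 and *Ldb3* at 51.6 TPM, whose library ranges overlapped, and *Csrp3* at 26.3 TPM. *Tcap* at 13.3 and *Actn2* at 10.5 TPM also overlapped in the controls, and *Myoz1* (0.969 TPM) and *Myot* (0.793 TPM) were scarce. In the KO the levels were 278.2 TPM for *Actn3*, 67.1 for *Pdlim3*, 60.7 for *Ldb3*, 38.6 for *Myoz2*, 19.6 for *Csrp3* and 4.14 for *Actn2*, with *Tcap* between 9.06 and 10.55. *Actn2* thus no longer overlapped with *Tcap*, while *Pdlim3* overlapped with *Ldb3*, and *Ldb3* with *Myoz2*. *Actn2* made up 1.84% ± 0.288 (SD, n = 3) of the members' summed TPM in the controls and 0.860% ± 0.145 (SD, n = 3) in the KO, without overlap (two-sided exact permutation p = 0.1, adjusted 0.25 over the 10 shares). Shares of *Pdlim3* (16.55% and 13.93%) and *Myoz2* (9.14% and 8.04%) were also lower without overlap, with the same p-values. That of the scarce *Myoz3* was higher (0% and 0.006%). With counts divided by exon length in place of TPM, the KO minus control shares were −1.08 for *Actn2*, −0.15 for *Pdlim3* and −0.49 for *Myoz2*, in percentage points. *Actn3* made up 56.2% ± 1.16 and 58.1% ± 3.67 (exact permutation p = 0.5). The summed TPM itself was 568 ± 52.2 in the controls and 480.1 ± 41.4 in the KO (SD, n = 3, exact permutation p = 0.2).

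**Figure D3:**
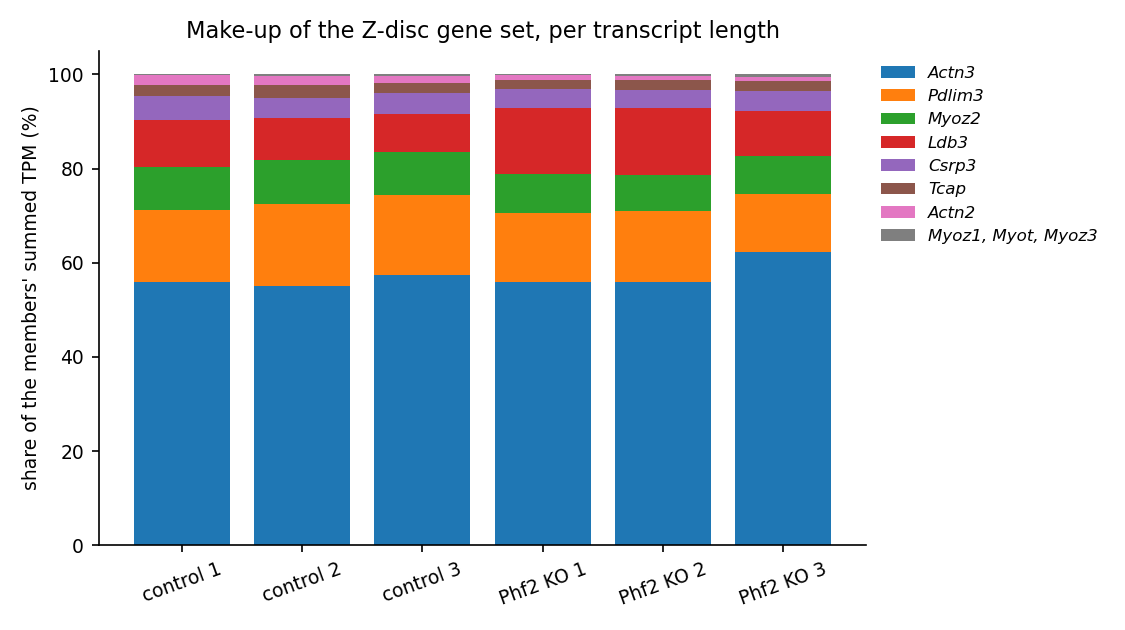
Share of each Z-disc gene in the summed TPM of the 10 genes, in percent, as 1 stacked bar per library, with the 3 scarcest genes merged. *Actn3* fills more than 55% of every bar, and the thin *Actn2* segment near the top is narrower in the 3 KO bars.

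Relatives of the Z-disc genes, most of them widely expressed in other cells, were called in both directions. Of 11 relatives, all tested, 2 were called lower and 3 higher, with a median log2 fold change of −0.08. The test called 3.26% of all genes tested lower and 3.22% higher. Every KO library lay below every control library for 6 relatives and above for 4, against 12.2% and 12.9% of all genes tested. The non-muscle alpha-actinins *Actn1* and *Actn4*, which cross-link actin in stress fibres and at cell contacts, measured 543.1 ± 12.3 and 481.4 ± 5.44 CPM in the controls (SD, n = 3) and 576.4 ± 23.0 and 456.7 ± 8.05 CPM in the KO. Their log2 fold changes of 0.09 and −0.08 were not called (adjusted p = 0.272 and 0.287), and their intervals, −0.002 to 0.17 and −0.16 to 0.004, do not reach the size seen for *Actn2*. In CPM every KO library lay above every control library for *Actn1* and below for *Actn4*. Of the relatives of *Csrp3*, *Csrp2* rose by 0.51 (SE 0.0537, adjusted p = 8.97e-05) and *Csrp1* by 0.21 (adjusted p = 0.0067); both encode LIM proteins of smooth muscle and many other cells. *Palld*, which encodes the actin-bundling protein palladin, rose by 0.29 (SE 0.0375, adjusted p = 4.64e-04), and its sarcomeric relative *Mypn*, encoding myopalladin, fell by 0.80 (SE 0.163, adjusted p = 0.00934). *Mypn* and *Palld* are counted in both the relatives and the partners, and *Des* in both the muscle markers and the partners. Among the other *Pdlim* genes, *Pdlim2* fell by 0.26 (adjusted p = 0.0228), and *Pdlim1*, *Pdlim4*, *Pdlim5* and *Pdlim7* were not called, with log2 fold changes between −0.17 and 0.09. The call of *Pdlim2* was lost without control replicate 1 (adjusted p = 0.111), control replicate 2 (0.0539), KO replicate 2 (0.0671) or KO replicate 3 (0.116), and that of *Csrp1* without control replicate 2 (0.0592) or KO replicate 2 (0.0512).

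For pairs of a sarcomeric gene and a relative that were chosen after the values were seen, the ratios are a description of the changes above. Their two-sided exact permutation p was 0.1 for each pair, the smallest possible, and gives no support after such a choice. The log2 ratio of *Csrp3* to *Csrp2* CPM was −2.58, −2.82 and −3.12 in the controls and −3.70, −3.96 and −3.72 in the KO. For *Mypn* to *Palld* it was −5.47, −5.56 and −6.08 in the controls and −6.77, −6.86 and −6.67 in the KO.

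Most of the partners that share the Z-disc with these proteins were also lower. Of 32 partners 31 were tested, 19 were called lower and 2 higher, and the median log2 fold change was −0.28. The test called 3.26% of all genes lower and 3.22% higher. The largest falls were those of *Fbxl22*, an F-box protein (−0.88, SE 0.192, adjusted p = 0.0141), *Mypn* (−0.80), *Ankrd2*, a stretch-responsive ankyrin repeat protein (−0.64, SE 0.122, adjusted p = 0.00773), *Neb*, the thin filament protein nebulin (−0.63, SE 0.0871, adjusted p = 0.00707), and *Filip1* (−0.61, SE 0.0833, adjusted p = 6.74e-04). For *Neb* the adjusted p was 0.122 with the replicate block and 0.0518 without KO replicate 1. The call of *Fbxl22* was lost without control replicate 2 (0.103) or KO replicate 3 (0.0556), that of *Mypn* without control replicate 1 (0.0508), control replicate 2 (0.0661) or KO replicate 2 (0.0555), and that of *Ankrd2* without KO replicate 3 (0.0574). The partners that rose were *Palld* (0.29) and *Fhl2*, a LIM protein (0.23, SE 0.0599, adjusted p = 0.0343). For *Fhl2* the call held without control replicate 3 and in none of the other leave-outs, where the adjusted p was 0.0616 to 0.19. Of the 10 partners not called, *Ttn*, which encodes titin, had the lowest estimate, −0.54, with an adjusted p of 0.111. The capping protein genes *Capza1*, *Capza2* and *Capzb*, whose products close the barbed ends of actin at the Z-disc and elsewhere, had log2 fold changes of 0.08, 0.05 and 0.01.

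**Figure D4:**
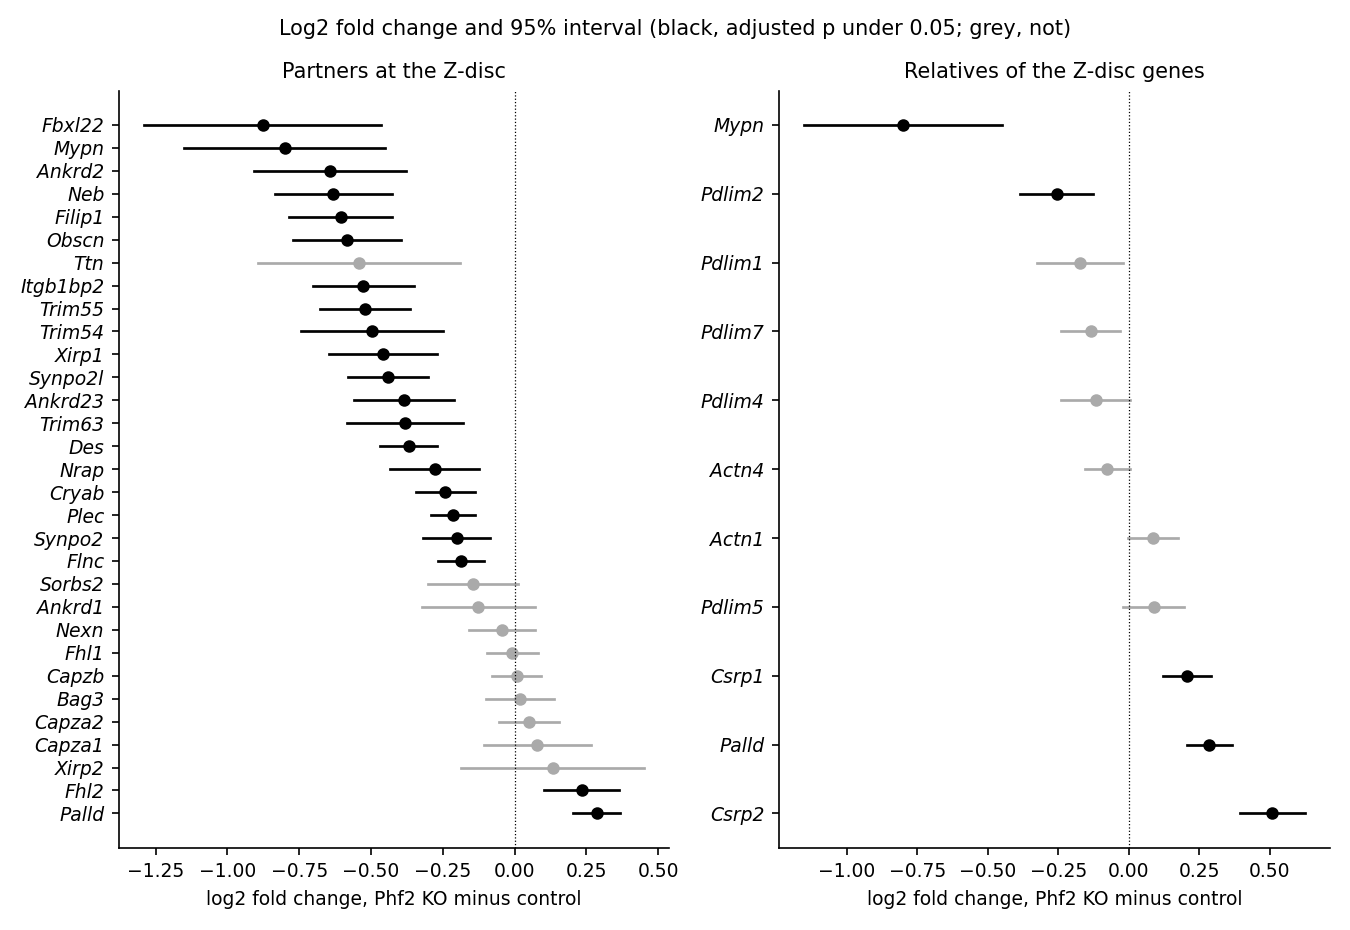
Log2 fold change, KO minus control, with 95% interval for 31 Z-disc partners (left) and 11 relatives of the Z-disc genes (right), black where the adjusted p was under 0.05 and grey where it was not (n = 3 wells per group). Most partners lie left of 0, whereas *Palld*, *Csrp1* and *Csrp2* lie right of it.

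The calsarcins and *Csrp3* are also known for binding calcineurin or taking part in its signalling. Of 6 genes of calcineurin and its regulators, 0 were called by edgeR's quasi-likelihood test, exactTest, DESeq2 or limma-voom, and 2 had an unadjusted p under 0.05, both higher. In 3 of them (*Ppp3cc*, *Ppp3r1* and *Rcan2*) every KO library was above every control library, against 12.9% of all genes tested. The largest estimate was that of *Rcan2*, an inhibitor of calcineurin (0.41, SE 0.151, interval 0.08 to 0.73, adjusted p = 0.143).

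For each tested Z-disc gene the gene with the most similar profile was found among those with a mean of at least 5 CPM, by the root-mean-square difference of centred log2 CPM over the 6 libraries. These profiles include the difference between the groups, so a nearest gene has a similar fold change by its choice. The fold changes and adjusted p given for nearest genes are therefore no added support. For *Actn2* this was *Cav3*, encoding caveolin-3, at a distance of 0.181 on the log2 scale, with a log2 fold change of −1.39 (adjusted p = 1.81e-04). The nearest gene to *Myoz2* was *Cacng1*, encoding a subunit of a calcium channel, at 0.0235 and with a log2 fold change of −0.41. *Tpm2*, encoding beta-tropomyosin, was nearest to *Pdlim3* at 0.0291 (log2 fold change −0.27), and *Vamp5* was nearest to *Csrp3* at 0.0585 (−0.45). The genes nearest to the remaining members were *Tap2* for *Actn3* (0.0233), *Stk16* for *Ldb3* (0.0293), *Heyl* for *Tcap* (0.0877), *Nos1* for *Myot* (0.211) and *Pttg1* for *Myoz1* (0.22). These distances grow with the spread of the gene itself, whose range over the 6 libraries was 1.94 on the log2 scale for *Actn2* and 0.333 for *Ldb3*, so they are not ranked between members.

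**Figure D5:**
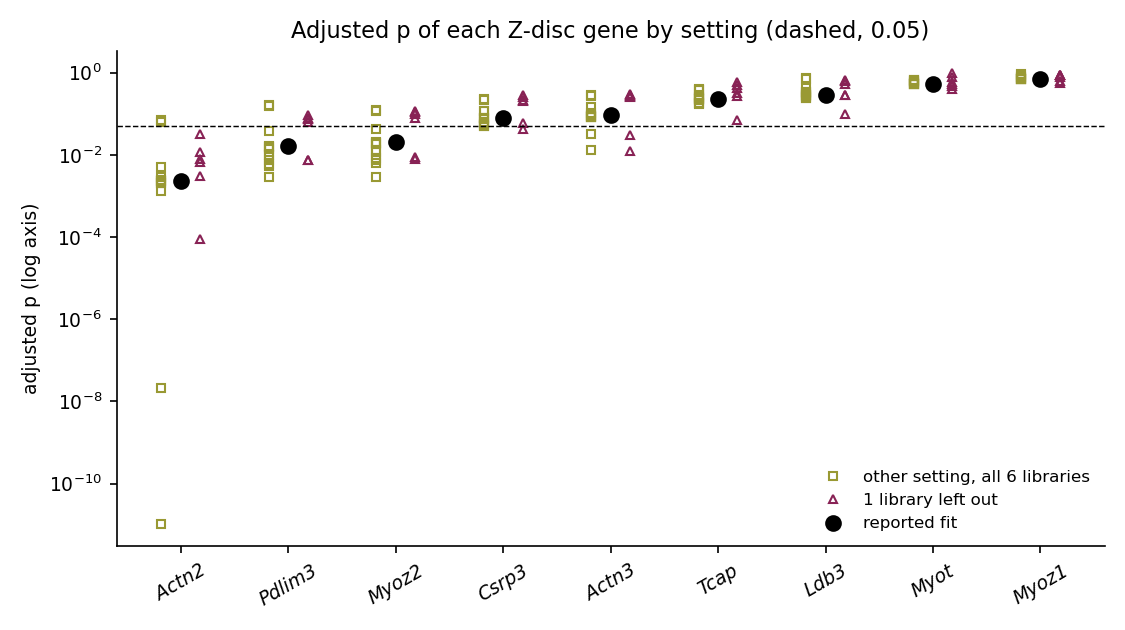
Adjusted p of each tested Z-disc gene on a log axis, from the reported fit (black circles), from other settings with all 6 libraries (squares) and after leaving out 1 library at a time (triangles), with a dashed line at 0.05. *Actn2* crosses the line only in the TPM fits, *Pdlim3* and *Myoz2* lie on both sides of it, and *Tcap*, *Ldb3*, *Myot* and *Myoz1* stay above it.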

How the data were processed

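Values of 6 libraries were used, 3 control and 3 *Phf2* KO, grouped by the labels. The libraries were poly(A)-selected, made with a directional kit and read as pairs. HISAT2 (alignment to mm10) and StringTie (values per gene) were used by the authors; versions, annotation and strand setting are not given in the sources used here. The matrix deposited by the authors holds estimated counts, whole numbers not scaled by library size. In genes with 1 transcript, 1 count stood for 74.98 to 74.99 covered bases (median), so a count is not a read. The TPM columns deposited for single libraries are a signal the authors scaled within each library; they list assembled loci beside reference genes, and only reference rows were used. All 10 identifiers matched GENCODE M21 (GRCm38), whose coordinates are given, and no member shares exon bases with another gene there.

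Genes passing filterByExpr at a minimum count of 10 were scaled with TMM factors and compared with edgeR 4.0.16 in R 4.3.3 (quasi-likelihood, robust), with Benjamini-Hochberg adjustment over 17310 genes. The study's methods name edgeR's exactTest, which was run as an alternative, as were DESeq2 1.42.0, limma 3.58.1, other scalings and filters, TPM, the block and leaving out each library. The script was tested on simulated data, where the share of false calls was near the adjusted threshold with dispersions drawn from the trend and above it with gene-wise dispersions, so calls close to the threshold are less certain than their adjusted p states. The reported fit and the exact permutations did not pair libraries, and the block on replicate number was only an alternative. It was run because same-numbered libraries deviated together (correlations 0.183, 0.345 and 0.234 over 10923 genes, against at most 0.0899 for other pairs). The values were centred within each group, so these correlations depend on each other and do not settle whether wells were paired. Single values were compared by exact permutation. So were the ratios of gene pairs, but these were chosen after the data were seen, so their p-values give no support. Named genes are the members, *Phf2*, at most 5 called genes per list with the largest change, those called against a list's direction, and each member's nearest profile; other names were added after their values were seen. The members and lists were chosen with earlier results of these data known. Figures were drawn with matplotlib 3.10.9.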

Additional observations from a re-analysis of the deposited data

How the results depend on the processing

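Direction held for 7 of the 9 tested Z-disc genes under every alternative in which they were tested. The exceptions were *Ldb3* and *Myoz1*, whose log2 fold changes were 0.21 and 0.12 on log2(TPM + 1) and 0.21 and 0.13 on log2(TPM + 0.1); the cause was not tested. In the fit with the replicate block, 5 members were called lower instead of 3, and 17 partners instead of 19. No member was called on either TPM scale (0 and 0), and 1 was called lower at an adjusted p under 0.01 or with a fold change of at least 1.5. Leaving out 1 library gave 1 to 5: 1 (*Actn2*) without control replicate 1, control replicate 2, KO replicate 2 or KO replicate 3, and 5 without control replicate 3. DESeq2 called 4, adding *Actn3*. Partners called lower numbered 2 on log2(TPM + 1), 4 on log2(TPM + 0.1), 12 at an adjusted p under 0.01, 5 with the fold limit and 10 to 18 in the leave-outs, the lowest without control replicate 2. Partners called higher numbered 1 with limma-voom, 1 on each TPM scale, 1 at the stricter p, 0 with the fold limit and 1 to 2 in the leave-outs. Relatives called lower numbered 0 on each TPM scale, 1 at the stricter p, 1 with the fold limit and 0 to 2 in the leave-outs (0 without control replicate 1, control replicate 2 or KO replicate 2), and relatives called higher numbered 0 with the fold limit. In the limma fit on log2(TPM + 1) only 70 genes of all were called lower and 57 higher. Depth limits *Myoz1*, *Myot* and *Myoz3*, which had at most 75 estimated counts in any library. *Myoz1* and *Myot* were not tested with a filter of at least 1 CPM in 3 libraries or with counts divided by 4. In each of these settings 7 members were tested.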
